A study of Mus musculus with 7 samples.

Results

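The sirtuins are the 7 genes Sirt1 to Sirt7, read here as the rows of those names in the deposited count table of young and old mouse haematopoietic stem cells (HSCs). They are 7 of the 24015 gene symbols in the table, and all 7 passed the filter on low counts, which 11506 genes passed. The libraries came from bone marrow of C57BL/6 mice and were made from LSK CD150+CD48- cells (lineage-negative, Sca-1+ and Kit+) sorted by flow cytometry. There were 3 libraries from old mice and 4 from young mice. No transgene, deletion or treatment is named for either group, and the ages, the sex and whether a library held 1 mouse or a pool are not given in the labels. The only comparison of the design is old against young HSCs. The labels do not say that the libraries of a group came from separate animals, so the p-values measure only the spread between these libraries.

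Sirtuins are enzymes that remove acetyl and other acyl groups from lysines and consume NAD+ as they do so, which ties their activity to the supply of NAD+. SIRT1, SIRT6 and SIRT7 are mainly nuclear, SIRT2 is mainly cytosolic, and SIRT3, SIRT4 and SIRT5 are mitochondrial. In mouse HSCs, SIRT2 has been linked to control of the NLRP3 inflammasome, SIRT3 to mitochondrial oxidative stress, and SIRT7 to the mitochondrial unfolded protein response through the transcription factor NRF1.

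The upstream sequences of Sirt6 and Sirt4 are shown because these genes had the largest and the second largest old-to-young difference of the 7, and because their windows differ in the motifs they hold. Each is the 250 bases before a RefSeq start site on GRCm38.p6, written 5′ to 3′ on the strand of the gene. Both genes are on the minus strand, the Sirt6 window at chr10:81627567-81627816 and the Sirt4 window at chr5:115484298-115484547. RefSeq gave a second start site for Sirt6, whose window is not printed.
Sirt6 upstream: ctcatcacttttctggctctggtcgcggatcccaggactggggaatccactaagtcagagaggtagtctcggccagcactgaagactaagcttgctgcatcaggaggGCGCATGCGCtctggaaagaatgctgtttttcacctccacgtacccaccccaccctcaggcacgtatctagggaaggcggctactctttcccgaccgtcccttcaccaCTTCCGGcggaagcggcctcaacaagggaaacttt
Sirt4 upstream: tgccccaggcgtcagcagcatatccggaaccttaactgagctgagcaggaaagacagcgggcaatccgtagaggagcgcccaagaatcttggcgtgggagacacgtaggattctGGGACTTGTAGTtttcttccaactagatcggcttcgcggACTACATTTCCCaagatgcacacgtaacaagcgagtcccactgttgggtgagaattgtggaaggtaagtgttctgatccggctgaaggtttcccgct
The capitals mark matches to 4 motifs searched on both strands, namely the NRF1 motif GCGCANGCG, the ETS motif CCGGAAG, the ZNF143 motif and the E-box CACGTG. The SP/KLF motif GGGCGG and the FOXO motif GTAAACA were searched as well. The motifs were chosen after the sequences were seen.

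The printed Sirt6 window held the NRF1 motif at 2 overlapping positions, one on each strand of a palindrome, and 1 ETS motif nearer to the start site. The window of the second Sirt6 start site held neither motif. The Sirt4 window held the ZNF143 motif 2 times, on opposite strands. The ZNF143 motif also occurred 2 times around the Sirt2 start site, and the NRF1 motif occurred 1 time in the Sirt7 window. The E-box occurred 2 times before the Sirt1 start site. The ETS motif also occurred in the Sirt7 window and in the first Sirt3 window, but not in the window of a second Sirt3 start site. These short stretches are shown with 8 bases on each side of the match, which is in capitals.
Sirt2, farther match: ggctttttGGGATTTGTAGTttgataac
Sirt2, nearer match: tgcctgccGGGAGTTGTAGTtctctatc
Sirt7, NRF1 match: ccgggcccGCGCATGCGtctctgta
Sirt1, farther E-box: cgcccggcCACGTGacccggcg
Sirt1, nearer E-box: gggcgggtCACGTGacggggtt
Of the 32851 RefSeq promoter windows of 300 bases, 6.25% held the NRF1 motif, 8.86% the ETS motif, 1.81% the ZNF143 motif and 7.15% the E-box. The SP/KLF motif was in 35.7% of windows and in at least 1 window of Sirt1, Sirt2, Sirt3, Sirt5, Sirt6 and Sirt7. The FOXO motif was in 3.65% of windows and in none of the sirtuin windows. A match is a description of the letters, and no binding was measured.

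The libraries held 22203806 to 32401925 counts, and 10576 to 12073 genes had at least 1 count. A count of 3 in a library corresponded to 0.0929 to 0.137 CPM (counts scaled to library size), the unit used for levels here. In a principal component analysis, young 1 stood apart on the first component (27.7% of the variance) and young 2 on the second (21.5%). The HSC markers were present, with all 11 of 11 tested and a summed level of 2679 to 2850 CPM in old and 1421 to 2367 CPM in young libraries. Their log2 fold changes were positive for 6 and negative for 5, with a median of 0.25. Of the 11, 1 was called, against 0.252% of all tested genes. This was Procr, a surface marker that was higher in old HSCs (adjusted p = 0.00643, edgeR quasi-likelihood test). DESeq2 called 2 of the 11 higher, against 3.81% of its genes called in either direction. The groups of 4 of the 11 did not overlap, against 12.7% of all tested genes. Several defining markers of other cells had no count in any library, among them all 6 globins, Csf1r, Pax5, Cd3e and Lepr. Other members of those lists were detected: the T and NK cell markers summed to 214 to 273 CPM in old and 79.5 to 382 CPM in young libraries, the B cell markers to 73.4 to 192 and 122 to 185 CPM, and the stromal and endothelial markers to 12.6 to 42.6 and 4.29 to 66.8 CPM. The multipotent progenitor markers Cd34, Cd48 and Flt3 summed to 85.2 to 135 CPM in old and 261 to 406 CPM in young libraries. By edgeR 0 of them were called, and DESeq2 called all 3 lower in old HSCs, against 1.91% of its genes. Cd48 and Flt3 were at 0 in all 3 old libraries. The megakaryocyte markers summed to 159 to 295 CPM in old and 222 to 457 CPM in young libraries. Of their log2 fold changes 2 were positive and 4 negative, and DESeq2 called 1 of these genes lower in old HSCs. The erythroid markers summed to 11.1 to 49.4 CPM in old and 73.9 to 109.9 CPM in young libraries, and the monocyte markers to 11.2 to 24.5 and 47.5 to 91.2 CPM. Of the 3 tested monocyte markers, DESeq2 called 1 lower in old HSCs. The granulocyte markers, with Prtn3 called higher in old HSCs (edgeR adjusted p = 0.0242), summed to 546 to 793 CPM in old and 112 to 231 CPM in young libraries. Of the 9 granulocyte markers 3 were tested, and the other two, S100a8 and Ngp, had negative log2 fold changes of -2.44 and -0.34 with no call. The part of these marker differences in the results that follow was not tested.

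None of the 7 sirtuins passed the threshold of an adjusted p of 0.05 in the edgeR quasi-likelihood test, where 29 of all tested genes did (0.252%). Of those 29 genes, 27 were higher (0.235%) and 2 lower in old HSCs (0.0174%). At an unadjusted p under 0.05, 1 sirtuin passed, Sirt6, against 9.12% of all genes. The DESeq2 Wald test called Sirt6 and no other sirtuin, against 3.81% of the genes it gave an adjusted p, and limma-voom called 0 of the 7, against 0.435%. Sirt6 and Sirt3 were the 2 of 7 sirtuins whose old and young libraries did not overlap, as was the case for 12.7% of all genes. The 7 log2 fold changes (old minus young) were positive for 4 and negative for 3 genes, with a median of 0.00, and the median over all tested genes was -0.03. The 7 genes together took 618 to 683 CPM in old and 660 to 784 CPM in young libraries. In these bulk libraries, fewer cells of a type and less RNA per cell cannot be told apart.

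**Figure D1:**
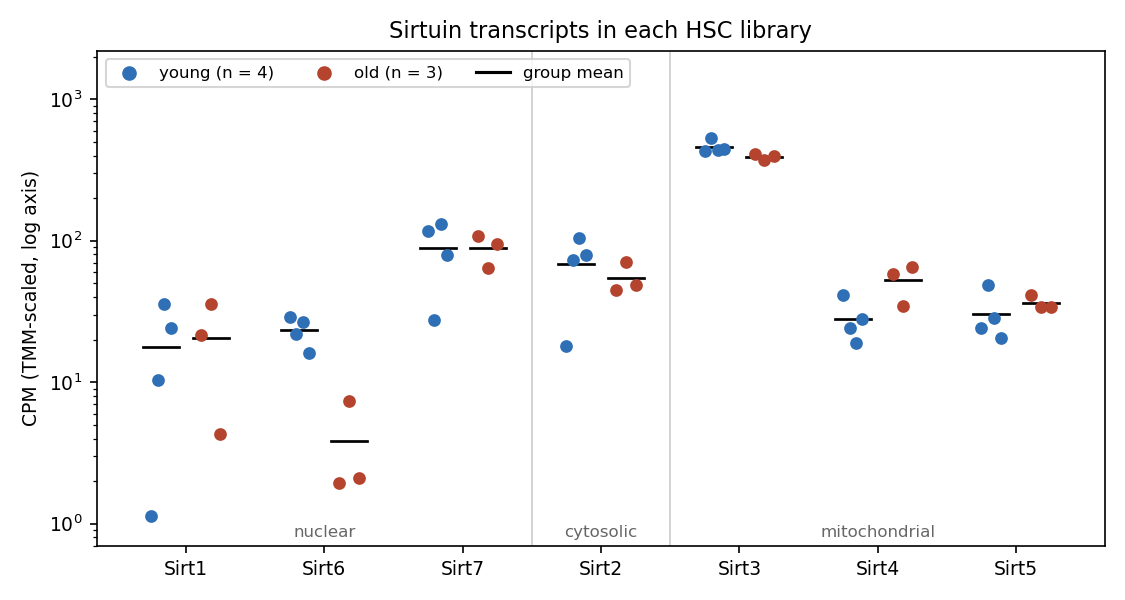
Level of each sirtuin in CPM on a log axis, with 1 point per library (3 old, 4 young) and a bar at the group mean. Sirt6 is the gene with the widest gap between the groups, at 1.93 to 7.40 CPM in old and 16.2 to 29.0 CPM in young libraries, and Sirt1 is spread widely within both groups.

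Sirt6, a nuclear enzyme that acts on chromatin and in DNA repair and telomere maintenance, had the largest difference of the family. It was at 1.93, 7.40 and 2.11 CPM in old 1, 2 and 3 and at 29.0, 21.96, 26.8 and 16.2 CPM in young 1, 2, 3 and 4. Every young library was above every old library, as for 5.18% of all genes in this direction. The raw counts were 51, 239 and 55 in the old and 662, 481, 741 and 464 in the young libraries, so each value lay well above the 3-count level. The mean was 3.81 ± 3.11 CPM in old (SD, n = 3) and 23.5 ± 5.69 CPM in young HSCs (SD, n = 4), a 6.16-fold lower mean in old HSCs.

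The log2 fold change of Sirt6 was -2.62 ± 1.003 (SE), with a 95% interval from -4.88 to -0.36. The edgeR quasi-likelihood test gave an adjusted p of 0.419. Sirt6 was among the 4.49% of genes that were lower in old HSCs at an unadjusted p under 0.05. DESeq2 gave a log2 fold change of -2.64 and an adjusted p of 0.0360, and so called Sirt6 lower in old HSCs, as it did for 1.91% of its genes. The call therefore rested on the tool. The log2 fold change ranged from -3.55 without old 2, the old library with the highest level, to -2.30 without old 1, and was -2.49 without young 1 and young 2. The progenitor marker Cd34 was at 106, 85.2 and 135 CPM in the old and 275, 398, 325 and 234 CPM in the young libraries, and so moved with the groups in the same direction as Sirt6. Its part in the Sirt6 difference was not tested either.

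Sirt1 encodes the most studied nuclear deacetylase, which acts on p53, FOXO factors and histones. Its levels were 21.5, 35.6 and 4.30 CPM in the old and 1.14, 10.3, 35.5 and 24.2 CPM in the young libraries. Both groups ran from low to high and overlapped over most of their range, with a 31.3-fold gap between the highest library, old 2, and the lowest, young 1. The log2 fold change of 0.20 ± 1.16 (SE) had the widest 95% interval of the 7, from -2.40 to 2.81 (edgeR adjusted p = 0.989). It turned to -0.48 without old 2, to -0.19 without young 1 and to -0.55 without young 1 and young 2, so no direction can be given for Sirt1.

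Sirt7, a nuclear and nucleolar deacylase with a role in ribosomal RNA transcription, was at 107, 64.2 and 95.4 CPM in the old libraries. In the young libraries it was at 116, 27.6, 132 and 79.7 CPM. The old libraries all lay inside the young range. The group means of 89.0 ± 22.2 CPM (SD, n = 3) and 88.9 ± 46.4 CPM (SD, n = 4) differed far less than the libraries within a group. The 95% interval of the log2 fold change, -1.11 to 1.11, includes changes of more than 2-fold either way. The sign of this near-zero value held in 7 of 17 alternative fits.

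Sirt2, the mainly cytosolic tubulin and histone deacetylase, was at 45.0, 71.3 and 48.5 CPM in the old libraries and at 18.1, 73.5, 104 and 79.1 CPM in the young libraries. Young 1 was the lowest of all 7 libraries and the other young libraries were above all 3 old ones. The means of 54.9 ± 14.3 CPM (SD, n = 3) and 68.8 ± 36.4 CPM (SD, n = 4) gave a log2 fold change of -0.33 ± 0.55 (SE; edgeR adjusted p = 0.970). It was -0.64 without young 1, -0.58 without old 2, and -0.05 without young 3, with no call.

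Sirt3 encodes the main deacetylase of the mitochondrial matrix and had by far the highest level of the family. It was at 408, 371 and 395 CPM in the old and at 430, 530, 438 and 444 CPM in the young libraries. All 4 young libraries were above all 3 old ones, but by little, and young 2 stood above the other young libraries. The mean was 392 ± 18.8 CPM in old (SD, n = 3) and 460 ± 46.5 CPM in young HSCs (SD, n = 4). The log2 fold change of -0.23 ± 0.18 (SE) did not pass the test (edgeR adjusted p = 0.857), and its 95% interval ran from -0.64 to 0.17. Sirt3 was also the steadiest member, with a coefficient of variation of 4.80% over the old and 10.1% over the young libraries, and 98.3% of the tested genes had a higher coefficient over the young libraries.

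Sirt4 encodes a mitochondrial enzyme known for ADP-ribosylation of glutamate dehydrogenase and for lipoamidase activity. It was at 58.3, 34.8 and 65.0 CPM in the old and at 41.2, 24.2, 18.8 and 27.8 CPM in the young libraries. The groups overlapped because young 1 was above old 2. The mean was 52.7 ± 15.9 CPM in old (SD, n = 3) against 28.0 ± 9.55 CPM in young HSCs (SD, n = 4), a 1.88-fold difference. The log2 fold change of 0.91 ± 0.52 (SE) did not pass the test (edgeR adjusted p = 0.693), and its 95% interval ran from -0.25 to 2.08. It was positive in all 17 alternative fits, from 0.74 to 1.18.

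Sirt5, the mitochondrial desuccinylase and demalonylase, was at 41.2, 33.7 and 34.04 CPM in the old and at 24.3, 49.0, 28.4 and 20.5 CPM in the young libraries. The old libraries lay within the young range, in which young 2 was the highest. The means were 36.3 ± 4.20 CPM (SD, n = 3) and 30.6 ± 12.7 CPM (SD, n = 4), and the log2 fold change of 0.25 ± 0.56 (SE) had a 95% interval from -1.01 to 1.504 (edgeR adjusted p = 0.977).

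**Figure D2:**
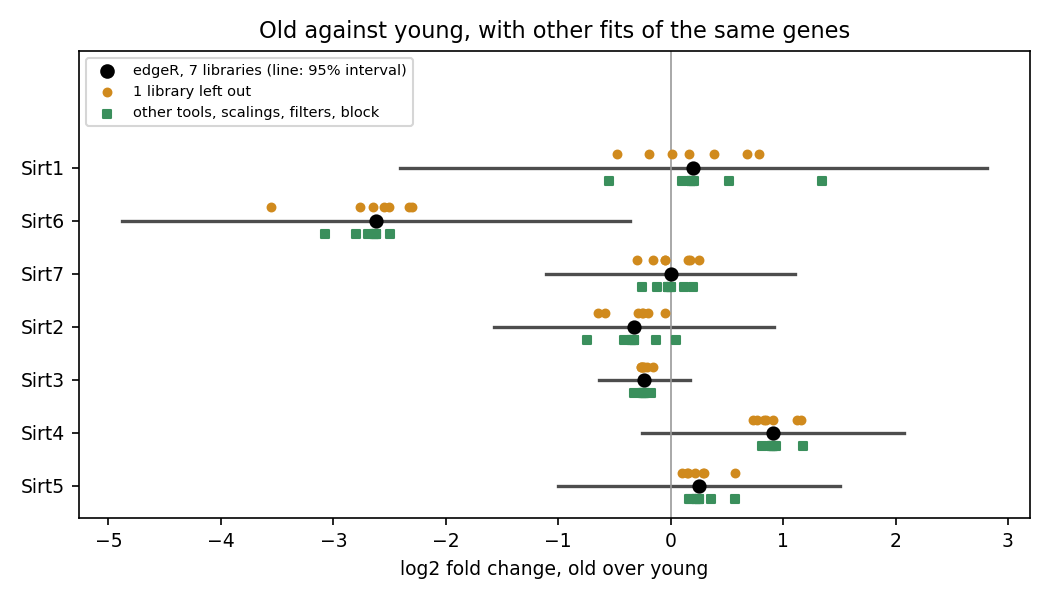
Log2 fold change (old minus young) of each sirtuin in the edgeR fit with its 95% interval, beside the values of the alternative fits. The interval of Sirt6, from -4.88 to -0.36, is the one that lies wholly on one side of 0, and the values for Sirt1, Sirt2 and Sirt7 fall on both sides.

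To compare levels between the sirtuins, CPM were divided by the exon length of each gene in kilobases. Sirt3 was first in all 7 libraries, at 227 ± 10.9 CPM per kb in old (SD, n = 3) and 267 ± 27.0 CPM per kb in young HSCs (SD, n = 4). It made up 65.8 ± 0.93% of the summed length-scaled level of the family in old and 69.4 ± 6.57% in young HSCs. Sirt7 came second, at 49.3 ± 12.3 and 49.3 ± 25.7 CPM per kb.

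In old HSCs the order after Sirt7 was Sirt4 (25.9 ± 7.77 CPM per kb), Sirt2 (24.4 ± 6.33), Sirt5 (12.3 ± 1.42), Sirt1 (4.62 ± 3.54) and Sirt6 (1.64 ± 1.34). By exon length, the library ranges of Sirt4 and Sirt2 overlapped, as did those of Sirt1 and Sirt6. The other neighbours in this order had ranges that did not. In young HSCs the order after Sirt7 was Sirt2 (30.5 ± 16.1 CPM per kb), Sirt4 (13.7 ± 4.68), Sirt5 (10.4 ± 4.32), Sirt6 (10.1 ± 2.45) and Sirt1 (4.02 ± 3.42). There the library ranges of Sirt3 and Sirt7 did not overlap, and those of every later pair of neighbours did. By coding length, Sirt5 (29.0 ± 12.1 CPM per kb) stood above Sirt4 (27.9 ± 9.53) in young HSCs, so the order of this pair rests on the length used. By that length the young ranges of Sirt6 (from 16.08 CPM per kb) and Sirt1 (up to 16.02) just missed each other. In old HSCs the coding-length ranges of Sirt7 (from 53.1 CPM per kb) and Sirt4 (up to 64.9) overlapped. So did those of Sirt2 (from 38.4) and Sirt5 (up to 39.1), so these separations also rest on the length used. The share of Sirt6 was 2.63 ± 0.66% in young and 0.492 ± 0.43% in old HSCs, and that of Sirt4 was 3.62 ± 1.42% and 7.43 ± 1.95%.

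**Figure D3:**
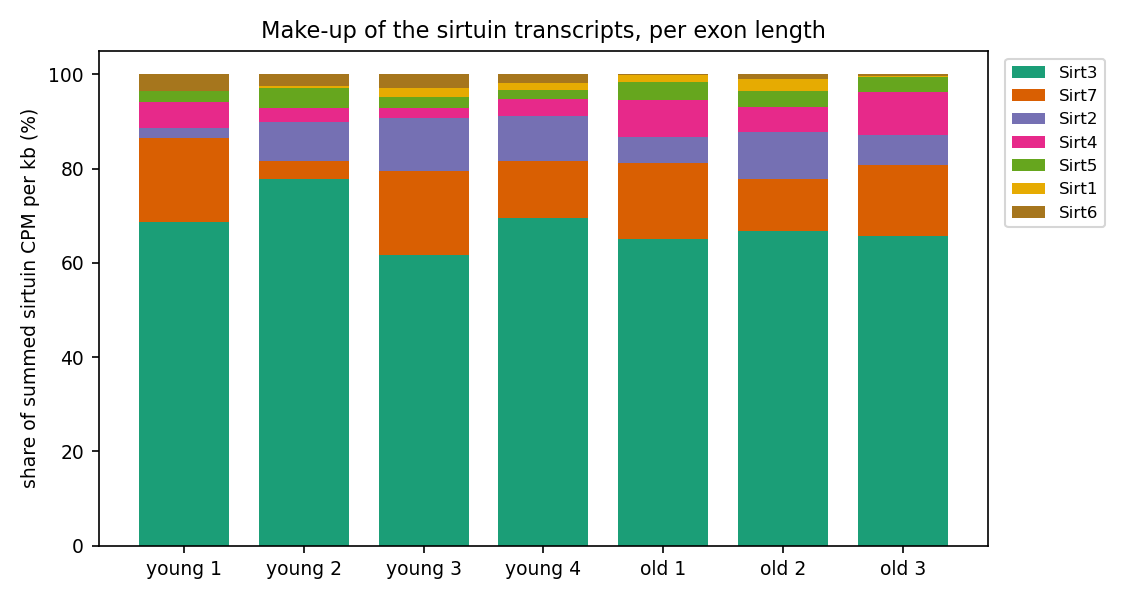
Share of each sirtuin, in percent, of the family's summed CPM per kilobase in each of the 7 libraries. Sirt3 takes 61.7% to 77.7% in every library, and the share of Sirt6 is smaller in each old library than in each young one.

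Some sirtuin genes overlap or adjoin other genes, and the library kit does not mark the strand, so reads from an overlapping stretch cannot be assigned to one gene. Sirt6 starts within 1 kb of Ankrd24, a gene on the opposite strand that encodes an ankyrin repeat protein, with no exon in common. Ankrd24 was at 37.5, 29.9 and 15.5 CPM in the old and at 0.0438, 0, 9.64 and 13.5 CPM in the young libraries. Here the old libraries were all above the young ones, the reverse of Sirt6, but the log2 fold change of 2.25 was not called (edgeR adjusted p = 0.869). Sirt3 overlaps Psmd13, which encodes a proteasome lid subunit, head to head by 342 exon bases, and the promoter windows of the pair share 184 bases. Psmd13 was at 117, 99.2 and 49.4 CPM in the old and at 90.1, 146, 119 and 79.5 CPM in the young libraries, with overlapping groups (log2 fold change -0.30, edgeR adjusted p = 0.945).

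Sirt2 shares 42 exon bases with Nfkbib, an inhibitor of NF-kappa-B on the opposite strand. Nfkbib was at 31.2 to 51.5 CPM in the old and 29.2 to 55.3 CPM in the young libraries (log2 fold change -0.07, edgeR adjusted p = 0.992). Sirt1 starts within 1 kb of Dnajc12, a co-chaperone gene that was at 31.4 to 36.4 CPM in old and 0 to 29.4 CPM in young libraries, with no overlap and no call (log2 fold change 0.90, edgeR adjusted p = 0.969). Sirt7 shares 124 bases with Mafg, a small MAF transcription factor gene on the same strand. Mafg was at 6.57 to 10.2 CPM in the old and 0.0438 to 11.9 CPM in the young libraries (log2 fold change 0.96, edgeR adjusted p = 0.970). Mir6936, which lies within Sirt7, had no count. Ric8a shares 418 exon bases with Sirt3 and the antisense gene Gm16145 shares 65 with Sirt1, but neither had a row of that name in the deposited counts. The part of the shared bases in the level and share of Sirt3 was not tested.

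**Figure D4:**
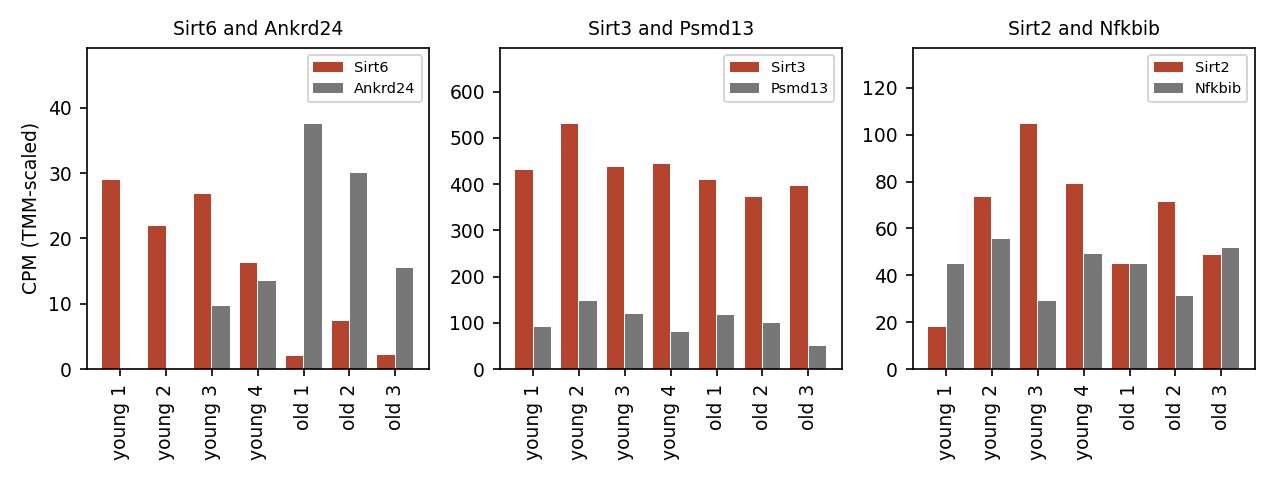
Level in CPM of Sirt6, Sirt3 and Sirt2 and of the neighbours Ankrd24, Psmd13 and Nfkbib, with 1 panel per pair and 1 bar per gene and library on axes that start at 0. For Sirt6 the old libraries (1.93 to 7.40 CPM) lie below the young ones (16.2 to 29.0 CPM). For Ankrd24 the old libraries (15.5 to 37.5 CPM) lie above the young ones (0 to 13.5 CPM). The bars are not scaled by gene length.

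Genes with a pattern most like each sirtuin were ranked by the Pearson correlation of log2 CPM over the 7 libraries among the 8287 candidates that averaged 10 CPM or more. For Sirt6 these were Atad5 (r = 0.981), a regulator of PCNA unloading, Shmt1 (r = 0.971), the cytosolic serine hydroxymethyltransferase, and Psmc3ip (r = 0.971), a recombination factor. Atad5 was at 0.151, 1.67 and 0.231 CPM in the old and 29.5, 40.3, 25.1 and 25.5 CPM in the young libraries. Shmt1 was at 21.0, 52.6 and 27.6 CPM in the old and 110, 141, 191 and 112 CPM in the young libraries. In both genes, as in Sirt6, old 2 was the highest old library and no old library reached a young one. Both were picked for their likeness to Sirt6 over these same libraries, so this is no separate evidence. Neither was called by edgeR (adjusted p = 0.159 and 0.124). In all, 114 of the 8287 candidates had an r over 0.9 with Sirt6.

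For Sirt3 the most similar genes were Zkscan1 (r = 0.966), Eif2s3x (r = 0.963) and Cenpe (r = 0.943), and 19 genes had an r over 0.9. For Sirt4 they were Hras (r = 0.981), Eef1a1 (r = 0.980) and Polk (r = 0.960), out of 40. Sirt1 was closest to Abca2, Plcg2 and Tmem87b (r = 0.993 to 0.980), Sirt2 to Melk, Trf and Map2k5 (r = 0.983 to 0.976), Sirt5 to Apopt1, Psmd6 and Stat4 (r = 0.969 to 0.963) and Sirt7 to Ttc37, Aco1 and Trp53i11 (r = 0.980 to 0.973). Few of these names held when a library was left out, and for Sirt6 0 to 2 of the 3 did.

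For the supply of NAD+, which RNA libraries do not measure, the transcripts of 25 genes of NAD synthesis and salvage were read. Of these, 17 were tested and 0 were called. Their log2 fold changes were positive for 10 and negative for 7, with a median of 0.41 against -0.03 over all genes. The median was 0.22 to 0.26 without old 2, old 3, young 1 or young 4. Pnp, the purine nucleoside phosphorylase that also cleaves nicotinamide riboside, was at 392, 318 and 353 CPM in the old and 170, 286, 238 and 201 CPM in the young libraries. No young library reached an old one, and the log2 fold change was 0.66 ± 0.23 (SE; edgeR adjusted p = 0.346). Nadk2, the mitochondrial NAD kinase, had a log2 fold change of 0.44 (edgeR adjusted p = 0.646). Ido1, which starts the kynurenine route to NAD+, was at 0, 6.66 and 8.61 CPM in the old libraries and at 0, 0, 0 and 0.592 CPM in the young ones (edgeR adjusted p = 0.673). Nampt, the rate-limiting enzyme of NAD+ salvage, was at 131 ± 10.8 CPM (SD, n = 3) and 156 ± 55.2 CPM (SD, n = 4), with overlapping groups and no call.

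Among 18 other enzymes that consume NAD+, 16 were tested and 0 were called by edgeR, with 5 log2 fold changes positive, 11 negative and a median of -0.36. The median was -0.59 without old 3 and -0.14 without young 4. Cd38, the main ecto-NADase of blood cells, was at 161, 133 and 177 CPM in the old and 36.3, 5.11, 16.9 and 24.3 CPM in the young libraries. The lowest old library was above the highest young one by far, and the mean was 7.59-fold higher in old HSCs. Its log2 fold change was 2.92 ± 0.57 (SE), with an edgeR p of 5.42e-04 among the 4.62% of genes higher with an unadjusted p under 0.05, and an adjusted p of 0.106. DESeq2 (adjusted p = 2.03e-04) and limma-voom (adjusted p = 0.0466) called it.

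Parp1, the main poly(ADP-ribose) polymerase of the DNA damage response, was at 10.5, 21.9 and 21.6 CPM in the old and 58.3, 16.5, 127 and 153 CPM in the young libraries. Young 2 lay among the old libraries and the other young ones far above them. The log2 fold change was -2.30 ± 0.74 (SE; edgeR adjusted p = 0.304), and DESeq2 called it (adjusted p = 0.0378). Parp8, a mono-ADP-ribosyltransferase family member, was at 3.11 to 19.6 CPM in the old and 28.5 to 56.0 CPM in the young libraries, without overlap and without a call by any of the 3 tools (edgeR adjusted p = 0.683).

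Of 16 regulators of sirtuins, 15 were tested and 0 were called, with 4 positive and 11 negative log2 fold changes and a median of -0.66. The median was -0.24 without young 1 and -0.40 without old 1. Ctbp1, a NADH-binding corepressor, was at 145, 213 and 203 CPM in the old and 318, 149, 610 and 454 CPM in the young libraries (log2 fold change -1.03, edgeR adjusted p = 0.468). Young 2 lay within the old range and the other young libraries were above it. Psme3, the proteasome activator PA28-gamma, had a log2 fold change of -1.22 (edgeR adjusted p = 0.472) with overlapping groups. Usp22, a deubiquitinase that stabilises SIRT1, was at 71.3, 97.0 and 139 CPM in the old and 356, 114, 121 and 115 CPM in the young libraries, and only young 1 lay above the old range (log2 fold change -0.79, edgeR adjusted p = 0.731).

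Of 34 substrates of the nuclear and cytosolic sirtuins, 32 were tested and 0 were called, while 5 were lower and 0 higher in old HSCs at an unadjusted p under 0.05. The log2 fold changes were positive for 9 and negative for 23, the median was -0.55, and the groups of 7 of the 32 did not overlap. Over all tested genes, 4.49% were lower at an unadjusted p under 0.05 and 12.7% had groups without overlap, and nothing particular to the list is read from its counts. The median was -0.85 without old 2. Suv39h1, the H3K9 methyltransferase acted on by SIRT1, was at 71.0, 63.0 and 22.4 CPM in the old and 151, 63.2, 225 and 119 CPM in the young libraries (log2 fold change -1.42 ± 0.52 SE, edgeR adjusted p = 0.384). Rbbp8, the DNA end resection factor CtIP acted on by SIRT6, was at 30.2, 27.4 and 30.2 CPM in the old and 59.3, 44.8, 61.2 and 78.7 CPM in the young libraries. Its groups did not overlap (log2 fold change -1.06 ± 0.42 SE, edgeR adjusted p = 0.454). Cdc20, the activator of the anaphase-promoting complex, had a log2 fold change of -1.34 (edgeR adjusted p = 0.474). Trp53, at 265 ± 52.6 CPM in old (SD, n = 3) and 230 ± 69.2 CPM in young HSCs (SD, n = 4), and Foxo3, at 2.64 ± 2.69 and 3.64 ± 2.42 CPM, had overlapping groups.

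Of 30 substrates of the mitochondrial sirtuins, 28 were tested and 0 were called, with 11 positive and 17 negative log2 fold changes and a median of -0.20. It was -0.10 to -0.07 without any one of the 4 young libraries. Acadl, the long-chain acyl-CoA dehydrogenase acted on by SIRT3, was at 477, 311 and 365 CPM in the old and 99.4, 188, 203 and 271 CPM in the young libraries. Slc25a4, the ADP/ATP carrier, was at 559, 444 and 504 CPM in the old and 377, 332, 335 and 342 CPM in the young libraries. In both genes every old library was above every young one, with log2 fold changes of 1.02 ± 0.32 and 0.54 ± 0.18 (SE; edgeR adjusted p = 0.303 and 0.336). Etfa, an electron transfer flavoprotein subunit, lay the other way, at 366, 348 and 397 CPM in the old and 648, 748, 428 and 470 CPM in the young libraries (log2 fold change -0.63 ± 0.24 SE, edgeR adjusted p = 0.412). Sod2, the mitochondrial superoxide dismutase, was at 280 ± 82.4 CPM in old (SD, n = 3) and 243 ± 80.2 CPM in young HSCs (SD, n = 4), with overlapping groups.

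For the mitochondrial unfolded protein response, which SIRT7 is known to restrain through NRF1, the transcripts of 17 genes were read. Of these, 16 were tested and 0 were called. None of the 16 passed at an unadjusted p under 0.05 or by DESeq2, and no gene had groups without overlap. Over all genes these shares were 9.12%, 3.81% and 12.7%, which in a list this short leave few genes to find, so the zeros say little about the list. The median log2 fold change was -0.20, with 5 positive and 11 negative, and was -0.41 without young 1 and young 2. Yme1l1, an inner membrane protease, was at 107, 130 and 85.4 CPM in the old and 390, 157, 157 and 116 CPM in the young libraries, where young 1 stood apart (edgeR adjusted p = 0.559). Ddit3, the stress factor CHOP, had a log2 fold change of 1.34 (edgeR adjusted p = 0.648) and the protease gene Afg3l2 one of -1.16 (edgeR adjusted p = 0.681). Nrf1 itself was at 38.8 to 62.6 CPM in the old and 57.3 to 79.6 CPM in the young libraries (log2 fold change -0.40, edgeR adjusted p = 0.903).

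Of 14 inflammasome genes, 7 were tested and 0 were called, with 6 positive log2 fold changes, 1 negative and a median of 0.50. The median was 0.24 without young 1, 0.68 without young 4 and 0.20 with no filter on low counts. Nlrp3, the sensor that SIRT2 is known to deacetylate, had no count in any library. Casp1, the inflammasome caspase, was at 273, 119 and 195 CPM in the old and 18.1, 143, 78.3 and 45.1 CPM in the young libraries. Young 2 was above old 2, and the log2 fold change of 1.46 ± 0.60 (SE) had an edgeR p of 0.0360 and an adjusted p of 0.468. Txnip, a thioredoxin inhibitor that binds NLRP3, and Gsdmd, the pore-forming gasdermin D, had log2 fold changes of 0.55 and 0.70 (edgeR adjusted p = 0.662 and 0.763) with overlapping groups.

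The 11 zinc-dependent histone deacetylases, which need no NAD+, were all tested and 0 were called, with 4 positive and 7 negative log2 fold changes and a median of -0.70. The median was -0.11 without young 3, -0.23 without old 1 and -0.80 without young 2. Hdac1, a core enzyme of the NuRD and Sin3 complexes, was at 129, 149 and 185 CPM in the old and 352, 208, 228 and 228 CPM in the young libraries. Its groups did not overlap, and young 1 was far above the rest (log2 fold change -0.72 ± 0.26 SE, edgeR adjusted p = 0.381). Hdac3, the enzyme of the NCoR complexes, had a log2 fold change of -0.47 (edgeR adjusted p = 0.773) with overlapping groups. Hdac5, a class IIa deacetylase, was at 0.0378, 0 and 0.346 CPM in the old and 1.80, 0, 7.69 and 7.10 CPM in the young libraries (edgeR adjusted p = 0.656). Over the 8 lists, edgeR called 0 genes, DESeq2 2 (Cd38 and Parp1) and limma-voom 1 (Cd38), where the shares over all genes were 0.252%, 3.81% and 0.435%.

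**Figure D5:**
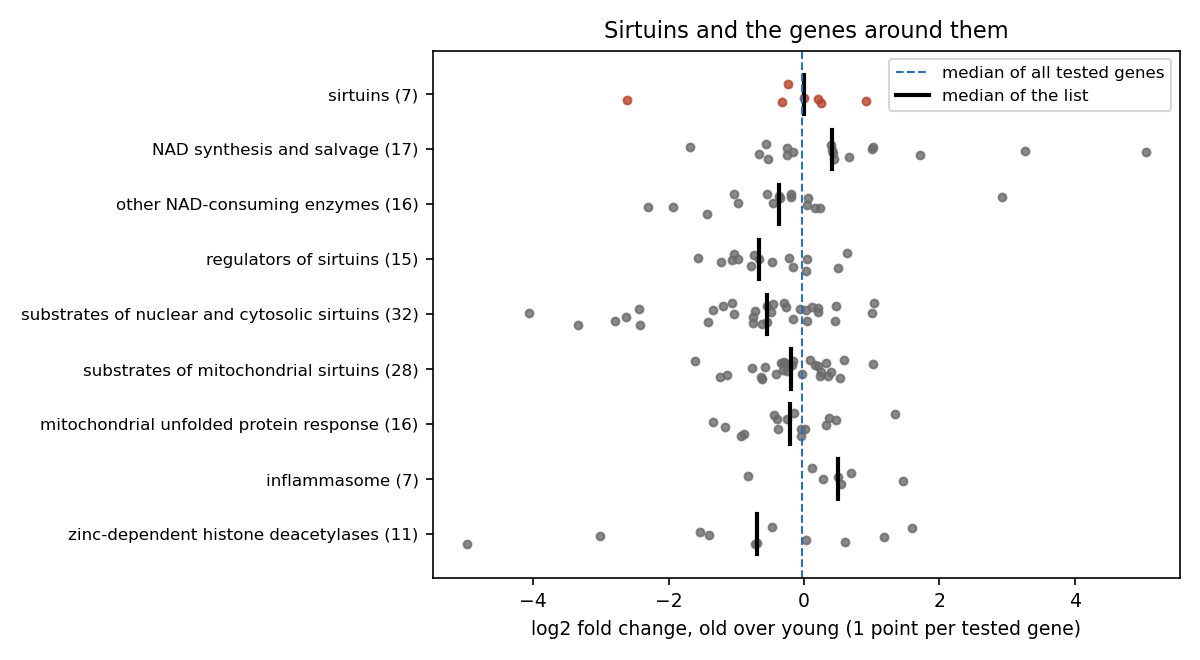
Log2 fold change (old minus young) of every tested member of the 8 gene lists and of the sirtuins, with a bar at each list's median. The medians run from -0.70 for the zinc-dependent deacetylases to 0.50 for the inflammasome genes, beside -0.03 over all tested genes. With 1 library left out, the first ranged from -0.80 (without young 2) to -0.11 (without young 3). The second ranged from 0.24 (without young 1) to 0.68 (without young 4).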

How the data were processed

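RNA from sorted LSK CD150+CD48- bone marrow cells was amplified by Smart-seq+ and made into Nextera XT libraries, per the labels' protocols. The authors deposited raw counts per gene symbol for 7 libraries. Per the submitters' processing notes, Trimmomatic, FastQC, STAR, featureCounts and the build mm9 were used. Versions and the strand setting of the counting are not stated there.

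Genes with few counts were removed with filterByExpr (minimum count 10, minimum total 15). edgeR 4.0.16 was run with TMM factors and its two-sided quasi-likelihood test in R 4.3.3, and p-values were adjusted by Benjamini-Hochberg over 11506 genes. Each SE was obtained from the log2 fold change and its F statistic. CPM use TMM-scaled library sizes. DESeq2 1.42.0, limma 3.58.1 (voom), other scalings and filters and libraries left out were alternatives. The common biological coefficient of variation was 106%. The pipeline was tested on simulated data. No libraries were duplicates.

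The members and the gene lists were chosen with earlier results of these data known. Named genes are the sirtuins, from each list the 3 tested genes with the lowest p, the 3 genes most correlated with each sirtuin, and neighbours within 1 kb or overlapping. Nampt, Trp53, Foxo3, Sod2, Nrf1, Nlrp3 and the markers named were chosen after their values were seen. Exon lengths came from GENCODE vM21, which matched 22709 of 24015 symbols and all 7 sirtuins, and promoters from RefSeq, which matched all 7. Both are on GRCm38, so no gene coordinates are given on the build of the files.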

Additional observations from a re-analysis of the deposited data

Results flagged for a closer look

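In 57 groups of 4 young libraries checked, 5 had a library farther from the others than Dixon's 95% critical value allows, and chance gives about 1 in 20. Among the sirtuins this was Sirt3 in young 2, at 530 CPM, where the rest of the group lay at 430 to 444 CPM. Young 1 stood apart for Usp22 (356 CPM against 114 to 121), for Yme1l1 (390 CPM against 116 to 157) and for Hdac1 (352 CPM against 208 to 228). Ido1 was at 0.592 CPM in young 4 and at 0 in the other young libraries. The groups of 3 old libraries were not checked.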

How the results depend on the processing

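All sirtuin results stayed below the threshold under the 17 alternatives except Sirt6, which DESeq2 called (-2.64, adjusted p = 0.0360, against adjusted p of 0.353 to 0.846 under the others). Sirt3, Sirt4, Sirt5 and Sirt6 kept their direction in all 17. Sirt7 turned negative with DESeq2 (-0.0215), DESeq2 size factors (-0.0215), upper quartile scaling (-0.0211), library size alone (-0.12), no filter (-0.0023) and without young 1 and young 2 (-0.25), and ran from -0.30 to 0.26 with 1 library left out. Sirt1 ran from -0.48 to 0.78 with 1 library left out and was -0.55 without young 1 and young 2, an alternative chosen after seeing the data. The count of 29 called genes became 431 with DESeq2, 50 with limma-voom, 16 with library size alone, 7 without young 1 and young 2, and 2 to 18 with 1 library left out. For the 8 lists, DESeq2 called 2 genes and limma-voom 1. By coding length, the share of Sirt5 was 5.37% in old and 4.01% in young HSCs, against 3.56% and 2.67% by exon length. That of Sirt7 in old HSCs was 11.4%, against 14.2% by exon length. Scaling by library size alone moved the median of all genes to -0.12. For the differences between settings, the cause was not tested. Old and young libraries share only a number. After the group mean of each gene was subtracted from log2 CPM, same-numbered libraries correlated at 0.025, -0.074 and -0.014. On these residual values, no old library correlated best with its own number. With the replicate block, 0 genes were called, Sirt2 turned to 0.0463 and Sirt1 was at 1.35, its highest value under any alternative. The medians of all 8 lists kept their sign under every alternative, but each moved by over 1.5 times under at least 1. That of the mitochondrial sirtuin substrates was -0.20 in the main fit and -0.0065, near 0, with the replicate block. With 3 and 4 libraries and this spread, the sirtuin intervals other than that of Sirt3 include changes of 2-fold or more.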
